A study of Mus musculus with 12 samples.

Results

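Described here are 9 genes of the 54751 features measured in mouse heart RNA. They encode the hydratase, dehydrogenase and thiolase steps of mitochondrial fatty acid beta-oxidation, the helper enzymes that bring unsaturated fatty acids into those steps, and a pseudogene. Hadha and Hadhb encode the alpha and beta subunits of the trifunctional protein, Gm13910 is the pseudogene of Hadhb, Echs1, Hadh and Acaa2 encode separate enzymes of the matrix, and Eci1, Eci2 and Decr1 encode the helper enzymes. The members were chosen by their place in the pathway and with the knockout and control values of these libraries in view. Their differences between the groups are therefore given as a description without a test. All 9 passed the filter on low values, a mean of at least 10 normalised counts over the libraries, as did 18250 features in all.

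Beta-oxidation shortens an acyl-CoA by repeated rounds of dehydrogenation, hydration, a further dehydrogenation and thiolytic cleavage, and it supplies most of the fuel of the adult heart. The trifunctional protein sits on the inner mitochondrial membrane and carries out hydration, dehydrogenation and cleavage of long-chain intermediates, with the hydratase and dehydrogenase on the alpha subunit and the thiolase on the beta subunit. Shorter intermediates pass through soluble enzymes, the hydratase Echs1, the dehydrogenase Hadh and the thiolase Acaa2. Double bonds at positions that the hydratase cannot use are moved by the isomerases Eci1 and Eci2 or reduced first by Decr1.

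The samples were hearts of C57BL/6N mice aged 52 weeks. The 3 knockout libraries come from Rexo2loxP/loxP, +/Ckmm mice, and the 3 control libraries from Rexo2loxP/loxP mice, so both groups carry loxP sites in Rexo2 and the Ckmm allele is present in the knockout group alone. Ckmm names the muscle creatine kinase gene, a widely used driver of Cre recombinase in heart and skeletal muscle, and effects of that allele and of a loss of Rexo2 cannot be told apart in this design. Total RNA was depleted of cytoplasmic ribosomal RNA and primed with random hexamers. No label says whether each library is a separate animal, so the spread between libraries may be partly technical, and 3 RNA-end libraries of heart mitochondria per group were not analysed here. A library is called by its group and the number in its column, as in knockout 492.

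Recovered depth was 41979163 to 49722049 reads in the knockout libraries and 43561069 to 50764023 in the control libraries. Reads on features of mitochondrial DNA (mtDNA) took 71.5% to 71.9% of the total in knockout and 69.4% to 70.0% in control libraries, without overlap. Control 490 stood apart from the other libraries on the first principal component of all tested features, at 30.1 where the others lay between -16.7 and 5.63. Rexo2, which encodes an oligoribonuclease, had 274, 288 and 314 normalised counts in knockout 492, 499 and 501, against 330, 368 and 293 in control 490, 498 and 502. These groups overlapped, and because the sources used here do not name the deleted exons, the count does not check the labels. The 6 cardiomyocyte markers summed to 439684 to 476316 normalised counts in knockout and 443423 to 492461 in control libraries. All 4 adipocyte markers together summed to at most 6.77 counts in any library, Myh4 of skeletal muscle was at 0 in all 6 libraries, and the sums of the endothelial, fibroblast, smooth muscle, macrophage, atrial and red cell lists overlapped between the groups. The skeletal muscle list of 5 genes holds Acta1 and Ckm, which heart muscle also expresses. It summed to 18206 to 19473 in knockout and 15697 to 17050 in control libraries without overlap. Acta1 had 4433, 4993 and 5755 counts in knockout 492, 499 and 501, against 2186, 3715 and 4183 in control 490, 498 and 502. Ckm overlapped between the groups, and Myh1 and Tnnt3 reached at most 3.05 and 9.47 counts in any library. The part of this list in the results was not tested.

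Among the 9 genes, Hadhb, its pseudogene Gm13910 and Echs1 had lower counts in every knockout library than in any control library. Relative to the control mean, the knockout mean differed by -20.9% for Hadhb, by -22.4% for Gm13910 and by -20.5% for Echs1. The counts of Hadha, Hadh, Acaa2, Eci1, Eci2 and Decr1 overlapped between the groups. Groups that did not overlap and were lower in knockout made up 4.9% of the 18250 tested features, and since this contrast was in view when the members were chosen, nothing is read from the 3 of 9. None of the 9 had groups that did not overlap and were higher in knockout, as 4.61% of the tested features had. In whole hearts, fewer cells of a type and less RNA per cell cannot be told apart.

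**Figure D1:**
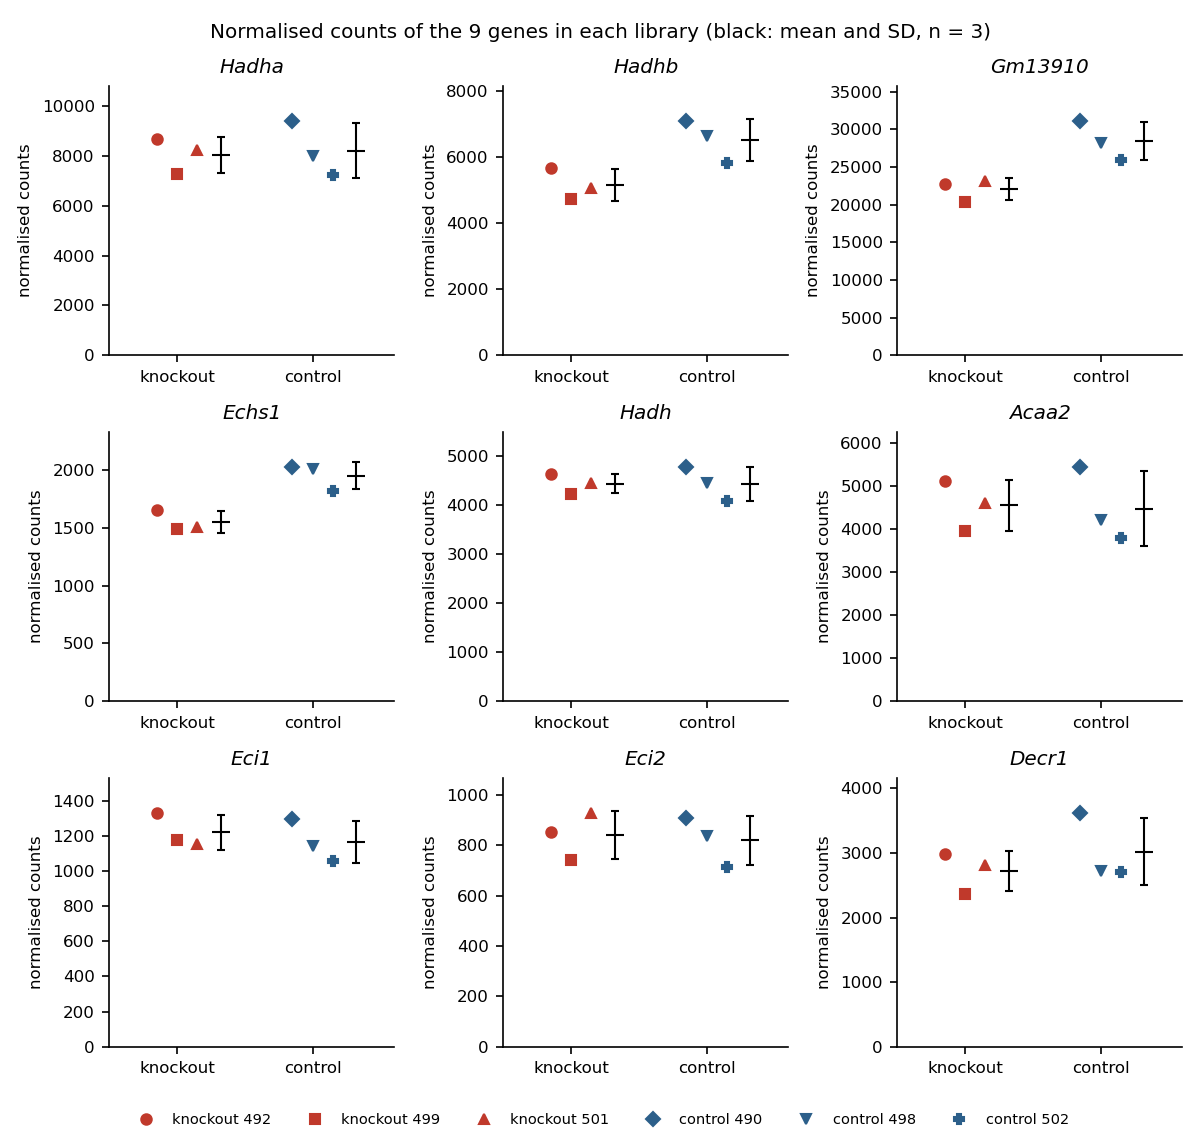
Normalised counts (y axis, from 0) of the 9 genes in the 3 knockout libraries (red, left) and the 3 control libraries (blue, right), with the mean and SD of each group in black. The groups do not overlap for Hadhb, Gm13910 and Echs1 and overlap for the other 6 genes.

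Hadha and Hadhb lie head to head on chromosome 5. Hadha (ENSMUSG00000025745.12) occupies 30119423 to 30154980 on the minus strand and Hadhb (ENSMUSG00000059447.13) 30155253 to 30184593 on the plus strand, in RefSeq's annotation of GRCm38.p6. Only 272 bases separate the starts of the subunit genes, and this interval is shown because both genes start from it while their counts differed in pattern between the groups. It is chr5:30154981-30155252, on the plus strand from the base after the Hadha start to the base before the Hadhb start, from RefSeq, with matches to the GC box GGGCGG on either strand in capitals.
Hadha-Hadhb interval: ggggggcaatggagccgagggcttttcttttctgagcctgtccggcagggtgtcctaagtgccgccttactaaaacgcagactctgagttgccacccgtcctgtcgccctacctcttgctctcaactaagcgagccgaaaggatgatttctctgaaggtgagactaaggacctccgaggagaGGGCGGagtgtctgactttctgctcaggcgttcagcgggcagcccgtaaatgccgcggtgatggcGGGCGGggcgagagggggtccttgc
The interval held 60.3% G and C and a pair of GC boxes, whose near ends lie 85 and 20 bases before the Hadhb start.

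Hadha, the alpha subunit with the hydratase and long-chain dehydrogenase activities, had 8678, 7266 and 8249 normalised counts in knockout 492, 499 and 501, against 9409, 8004 and 7225 in control 490, 498 and 502. The highest and the lowest library were both controls, and the knockout libraries lay between them. The means were 8064 ± 724 in knockout and 8212 ± 1107 in control hearts (SD, n = 3 each), or log2 fold change -0.02 ± 0.08 (SE; 95% interval -0.20 to 0.16). All fold changes here are on the log2(count + 1) scale. The sign of this difference turned to 0.08 without control 490 and to 0.05 without knockout 499.

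Hadhb, the beta subunit with the thiolase activity, had 5686, 4724 and 5069 normalised counts in the same knockout libraries, against 7096, 6649 and 5824 in the control libraries. Knockout 492, the highest of its group, lay just below control 502, the lowest of the other. The means were 5159 ± 487 in knockout and 6523 ± 645 in control hearts (SD, n = 3 each), or log2 fold change -0.34 ± 0.07 (SE; 95% interval -0.50 to -0.18). Leaving out 1 library at a time gave log2 fold changes from -0.42 without control 502 to -0.27 without control 490. The subunit genes thus had different patterns over the same 6 libraries.

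Within each library the count of Hadhb was set against that of Hadha, a ratio that does not depend on how libraries were scaled to each other. Hadhb over Hadha was 0.655, 0.650 and 0.614 in knockout 492, 499 and 501, against 0.754, 0.831 and 0.806 in control 490, 498 and 502. All knockout ratios lay below all control ratios, with means of 0.640 ± 0.022 in knockout and 0.797 ± 0.039 in control libraries (SD, n = 3 each). On the log2 scale the ratio was lower in knockout by a difference of -0.32, and it ran from -0.36 to -0.29 when any 1 library was left out. The ratios come from the contrast that was in view when the genes were chosen and were not tested, and they rest on a Hadhb count that may share reads with its pseudogene.

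**Figure D2:**
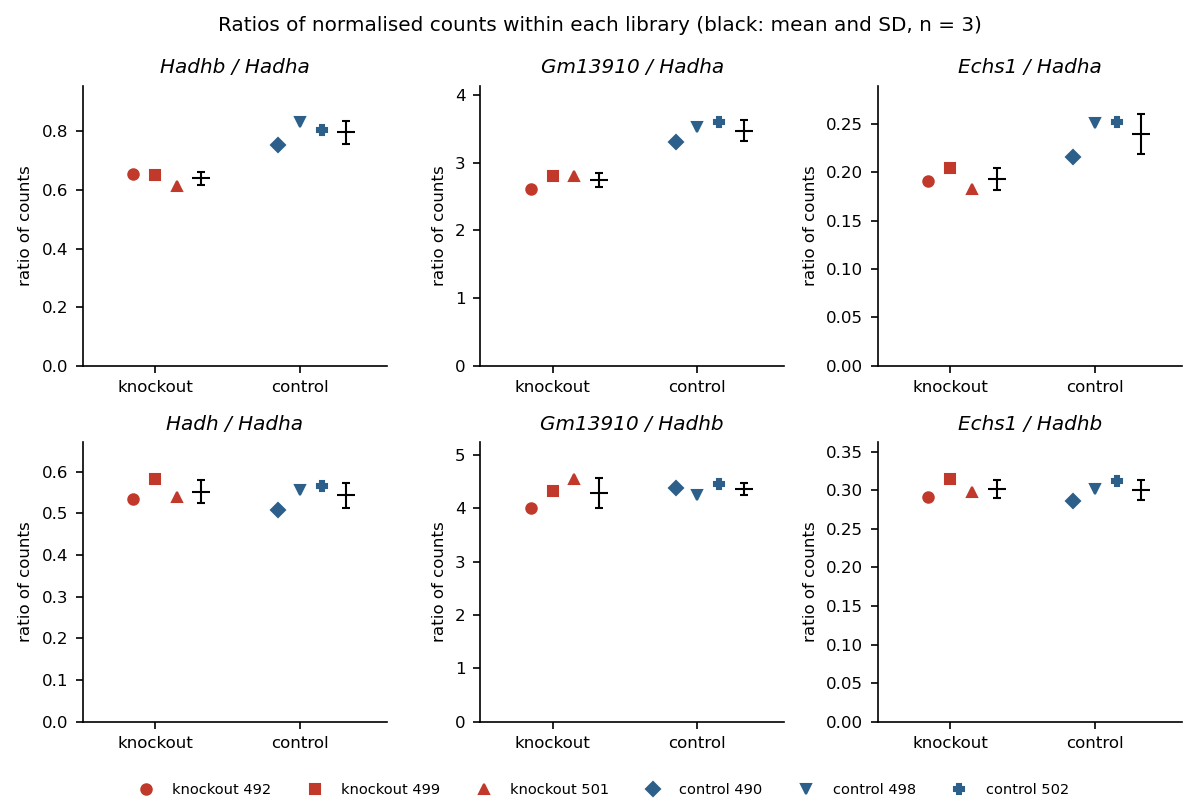
Ratios of normalised counts (y axis, from 0) of pairs of genes within each of the 3 knockout (red, left) and 3 control (blue, right) libraries, with the mean and SD in black. Hadhb, Gm13910 and Echs1 over Hadha are lower in all knockout libraries, while Hadh over Hadha, Gm13910 over Hadhb and Echs1 over Hadhb overlap.

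Gm13910 (ENSMUSG00000063684.9), listed by RefSeq as the pseudogene Hadhb-ps, spans 1959 bases on chromosome 2, from 108948770 to 108950728 in GRCm38.p6, where no other annotated gene overlaps it. Hadhb itself spans 29341 bases. Gm13910 had 22717, 20409 and 23069 normalised counts in knockout 492, 499 and 501, against 31083, 28241 and 25971 in control 490, 498 and 502. Every knockout library was below every control library. The means were 22065 ± 1445 in knockout and 28432 ± 2561 in control hearts (SD, n = 3 each), or log2 fold change -0.36 ± 0.06 (SE; 95% interval -0.50 to -0.22).

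The pseudogene held most of the reads that the table assigns to the pair. Of the reads on Hadhb and Gm13910 together, Gm13910 took 80.0%, 81.2% and 82.0% in knockout 492, 499 and 501, against 81.4%, 80.9% and 81.7% in control 490, 498 and 502. The share was 81.1 ± 1.01% in knockout and 81.3 ± 0.37% in control libraries (SD, n = 3 each) and overlapped between the groups. The submitters' processing notes name Bowtie2, an aligner that does not split a read across introns, and the sources used here do not give how reads with a match in both places were assigned. The separate counts of Hadhb and Gm13910 are therefore uncertain, and they are not independent observations.

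Summed, the pair had 28403, 25133 and 28138 normalised counts in knockout 492, 499 and 501, against 38179, 34890 and 31796 in control 490, 498 and 502. The sum did not overlap between the groups, and its difference was -0.36 ± 0.07 on the log2 scale (SE; 95% interval -0.50 to -0.22). Over Hadha, the sum was 3.38 ± 0.097 in knockout and 4.27 ± 0.19 in control libraries (SD, n = 3 each), again without overlap. Most of the sum is Gm13910, and both parts were lower in every knockout library, so the sum adds no separate observation.

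Echs1 (ENSMUSG00000025465.13), the short-chain enoyl-CoA hydratase, which also serves the breakdown of valine, lies on the minus strand of chromosome 7 from 140105710 to 140116421 in GRCm38.p6. Its upstream sequence is shown because its pattern over the libraries was the nearest to that of Hadhb, on another chromosome, as described below. It is chr7:140116422-140116671, read along the minus strand towards the Echs1 start, from RefSeq, with GGGCGG on either strand in capitals.
Echs1 upstream: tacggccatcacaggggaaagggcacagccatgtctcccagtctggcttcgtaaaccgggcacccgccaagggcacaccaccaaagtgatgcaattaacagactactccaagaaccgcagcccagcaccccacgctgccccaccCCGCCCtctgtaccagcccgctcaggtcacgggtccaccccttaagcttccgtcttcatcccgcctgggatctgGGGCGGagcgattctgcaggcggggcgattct
These 250 bases held 62.8% G and C and a GC box on each strand.

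Echs1 had 1658, 1487 and 1508 normalised counts in knockout 492, 499 and 501, against 2028, 2007 and 1816 in control 490, 498 and 502. The groups were separated by the gap between knockout 492 and control 502. The means were 1551 ± 93.3 in knockout and 1951 ± 117 in control hearts (SD, n = 3 each), or log2 fold change -0.33 ± 0.06 (SE; 95% interval -0.46 to -0.20). Without any 1 library it ran from -0.38 to -0.30.

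Echs1 over Hadha was 0.191, 0.205 and 0.183 in knockout 492, 499 and 501, against 0.216, 0.251 and 0.251 in control 490, 498 and 502, without overlap. Echs1 over Hadhb, by contrast, was 0.301 ± 0.012 in knockout and 0.300 ± 0.013 in control libraries (SD, n = 3 each), with overlap. The 5′ part of Echs1 overlaps Paox, a gene on the plus strand, over 687 bases from 140115735 to 140116421. Paox had 46.2, 69.1 and 67.7 normalised counts in knockout 492, 499 and 501, against 46.5, 75.2 and 65.1 in control 490, 498 and 502. The sources used here do not give whether counting used strand, and the shared bases may then mix both genes.

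The other soluble enzymes of the same steps had overlapping counts. Hadh (ENSMUSG00000027984.8, chromosome 3, 131233419 to 131272101), the dehydrogenase of medium- and short-chain intermediates, had 4630, 4234 and 4441 normalised counts in knockout 492, 499 and 501, against 4779, 4446 and 4081 in control 490, 498 and 502. Its means were 4435 ± 198 in knockout and 4435 ± 349 in control hearts (SD, n = 3 each), or log2 fold change 0.00 ± 0.06 (SE), the smallest difference of the 9 genes. The 95% interval from -0.13 to 0.13 leaves room for a difference of that size in either direction.

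Acaa2 (ENSMUSG00000036880.9, chromosome 18, 74779212 to 74806207), the thiolase of the matrix, had 5111, 3938 and 4594 normalised counts in knockout 492, 499 and 501, against 5436, 4193 and 3775 in control 490, 498 and 502. It spread more between libraries than the others, with a coefficient of variation of 12.9% in knockout and 19.3% in control hearts, where counting alone gives 1.52% and 1.45%. Its log2 fold change of 0.03 had a 95% interval from -0.21 to 0.28. Without control 490 the value was 0.18, and without control 502 it was -0.08.

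The helper enzymes of unsaturated fatty acids also overlapped. Eci1 (ENSMUSG00000024132.6, chromosome 17, 24426683 to 24439316), an enoyl-CoA isomerase, had 1331, 1174 and 1151 normalised counts in knockout 492, 499 and 501, against 1293, 1140 and 1059 in control 490, 498 and 502, or log2 fold change 0.07 (95% interval -0.10 to 0.24). Eci2 (ENSMUSG00000021417.15, chromosome 13, 34977748 to 35027115), the isomerase found in mitochondria and peroxisomes, had 850, 741 and 928 in the knockout libraries, against 908, 836 and 714 in the control libraries, or log2 fold change 0.04 (95% interval -0.17 to 0.24). The highest library was a knockout library for both isomerases and the lowest was control 502. Gm16984, a long noncoding RNA on the other strand that overlaps Eci2 over 5559 bases, averaged 1.70 normalised counts in knockout and 1.02 in control hearts.

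Decr1 (ENSMUSG00000028223.8, chromosome 4, 15917240 to 15945377), the dienoyl-CoA reductase, had 2977, 2370 and 2817 normalised counts in knockout 492, 499 and 501, against 3621, 2723 and 2712 in control 490, 498 and 502. Control 490 lay far above the other 5 libraries. The log2 fold change was -0.14 with a 95% interval from -0.36 to 0.08. It was -0.0048 without control 490, -0.05 without knockout 499 and between -0.21 and -0.17 without any other library. The lower mean in knockout thus depended most on control 490 and knockout 499.

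**Figure D3:**
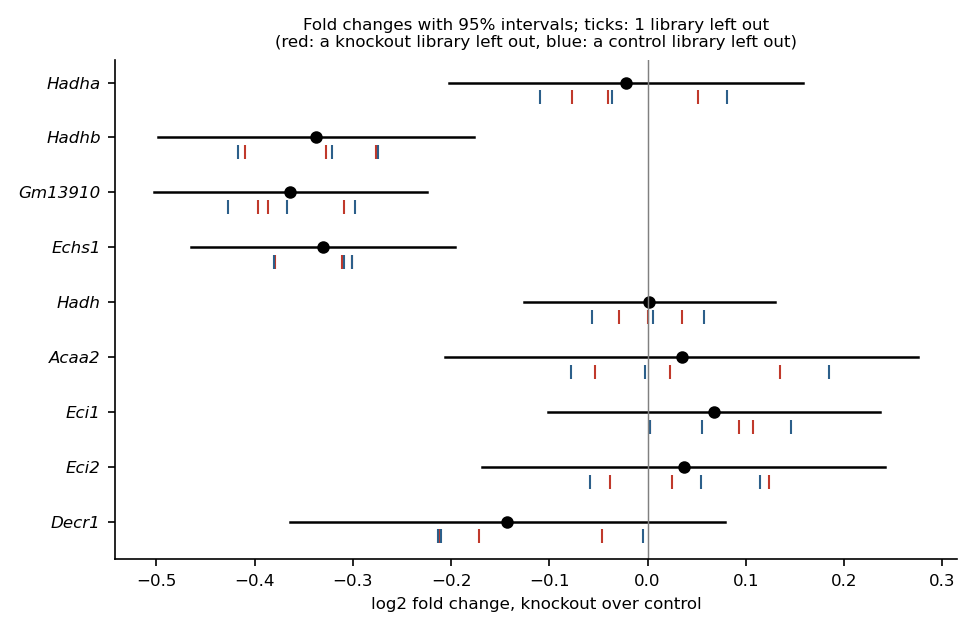
Log2 fold change, knockout over control (x axis), of each gene (rows), with the 95% interval as a line and the values with 1 library left out as ticks, red for a knockout and blue for a control library. The ticks of Hadhb, Gm13910 and Echs1 stay between -0.43 and -0.27, and those of Decr1 reach -0.0048.

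Over all 9 genes the median log2 fold change was -0.02, with 4 above and 5 below 0, where the median of all tested features was 0.0006. In the authors' deposited table, Hadhb (log2 fold change -0.34), Gm13910 (-0.37) and Echs1 (-0.33) were the 3 members called lower at an adjusted p under 0.05, and 0.384% of the 7550 features with an adjusted p there were called lower. Limma called 0 of the 9 at an adjusted p under 0.05 and 0.0219% of all tested features, while edgeR called 0 of the 9 and 0.0274% of the features. DESeq2 on the recovered reads called the same 3 genes and 0.437% of the 7550 features with an adjusted p. These counts describe the contrast that was in view when the members were chosen, and nothing is read from them. Scaling to equal totals counts the larger mtDNA share of the knockout libraries in the total. Under it the log2 fold changes were -0.41 for Hadhb, -0.43 for Gm13910 and -0.40 for Echs1. Limma then called these 3 among 37 of the 18250 tested features, 36 of the 37 lower. The median of all tested features moved to -0.07, and nothing is read from this count either.

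The 9 genes lay on the same side of their own means in 1 control and 1 knockout library and were split in the other 4. In control 490 all 9 lay above their own mean over the 6 libraries, and 7 of them had their highest value there, against 17.9% of all tested features. In knockout 499 all 9 lay below their own mean, by a median of -0.18 on the log2 scale, where the median of all tested features was 0.002. The lowest value of each gene was in knockout 499 for 4 genes, namely Hadhb, Gm13910, Echs1 and Decr1, and in control 502 for the other 5. Of all tested features, 15.8% were lowest in knockout 499 and 16.2% in control 502. Control 490 is the library that stood apart on the first principal component, and its part in these differences is given by the values without it, which were -0.27 for Hadhb, -0.30 for Gm13910 and -0.30 for Echs1.

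**Figure D4:**
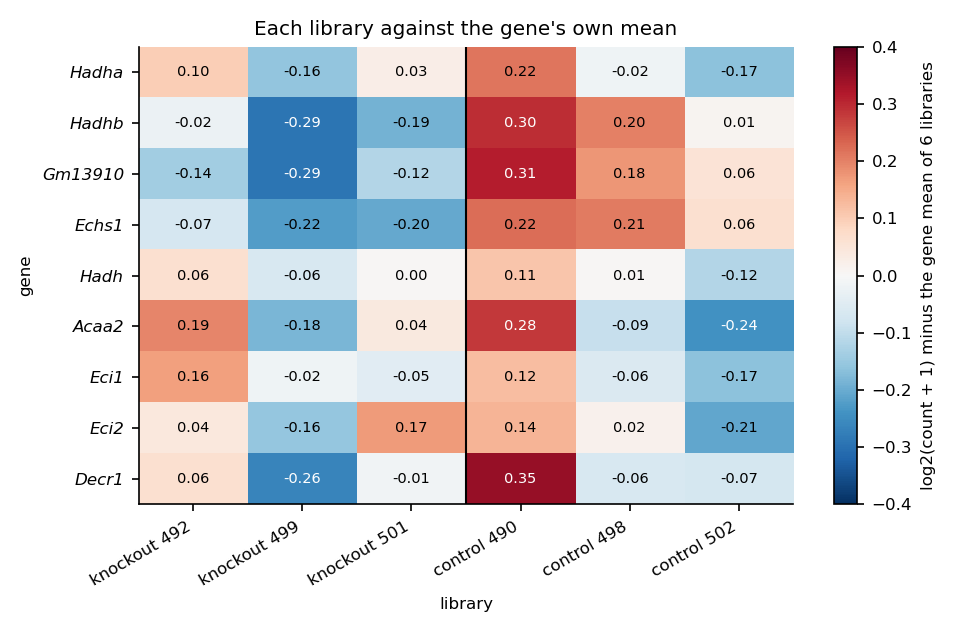
Log2(count + 1) of each gene (rows) in each library (columns, knockout left of control) minus the gene's mean over the 6 libraries, as numbers and colour. All values of control 490 are above 0 and all values of knockout 499 below 0, and Hadhb, Gm13910 and Echs1 are above 0 in all 3 control libraries and below 0 in all 3 knockout libraries.

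Likeness of pattern was measured as the root mean square difference of the centred log2 values over the 6 libraries, among features that averaged 100 or more normalised counts. Of the 11274 features ranked against Hadhb, Echs1 was the nearest, at 0.050, and Gm13910, whose reads may be shared with it, followed at 0.060, where the median feature was at 0.22. Hadha ranked 1022 at 0.17, Decr1 ranked 331, and Hadh, Eci2, Eci1 and Acaa2 ranked between 1556 and 4305. The nearest named features outside the pathway were Akr1e1, an aldo-keto reductase, at 0.070, Suclg2, a subunit of succinyl-CoA synthetase, at 0.073, the pseudogene Rpsa-ps1 at 0.078, the mismatch repair gene Pms1 at 0.079 and Ints10, a subunit of the Integrator complex, at 0.081. They had log2 fold changes from -0.36 for Suclg2 to -0.19 for Ints10.

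Against Echs1, the nearest of all was Suclg2 at 0.041, ahead of Hadhb at 0.050. D10Jhu81e at 0.056, Pdha1, the E1 alpha subunit of pyruvate dehydrogenase, at 0.057, Phpt1, a phosphohistidine phosphatase, at 0.057 and Prdx3, the mitochondrial peroxiredoxin, at 0.060 followed. Gm13910 ranked 15, Decr1 ranked 2095, Hadh ranked 2525 and Hadha ranked 3203. Eci1 ranked 6058 at 0.206, Eci2 ranked 6737 at 0.214 and Acaa2 ranked 8013 at 0.230, all farther from Echs1 than the median feature at 0.202. These distances include the difference between the groups and are a description of 6 libraries.

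The rest of the pathway was read from lists of other genes. No member of these lists passed limma's test over all features in either direction. Limma called 0 of the 57 tested genes and 0.0219% of all tested features. At that share, 0 of 57 does not set these lists apart from other features. At an unadjusted p under 0.05 were 4 of the 57, where 3.7% of all tested features reached this. EdgeR, DESeq2 and the authors' deposited table also called 0 of them. Among the features with an adjusted p, edgeR called 0.0274% and DESeq2 0.437%. The median log2 fold change of the 57 was 0.02, with 34 above and 23 below 0, and the values ran from -0.19 to 0.23, so all lay closer to 0 than those of Hadhb, Gm13910 and Echs1. The groups did not overlap for 6 of the 57 that were lower in knockout and 3 that were higher. Among all tested features the shares were 4.9% and 4.61%. These counts and the comparison of the lists with the members describe these libraries and were not tested.

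Genes for the entry of fatty acids, from uptake to the carnitine shuttle, had 0 of 9 called and 0 at an unadjusted p under 0.05, with a median of 0.03. Cpt1a, the carnitine palmitoyltransferase of the outer membrane, had 997 ± 144 normalised counts in knockout and 901 ± 175 in control hearts (SD, n = 3 each), or log2 fold change 0.16 (limma, adjusted p = 1.00). The Cpt1a groups overlapped, and its value ran from 0.0064 without control 502 to 0.29 without control 490. Fabp3, the fatty acid binding protein of heart, was at 0.05, or -0.02 without knockout 492. Cpt2, the carnitine palmitoyltransferase of the inner membrane, was at 0.04, or -0.03 without control 498. Most proteins of this list act in the supply of acyl-CoA to beta-oxidation.

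Genes of the first dehydrogenation and of electron transfer from it had 0 of 11 called, with 2 at an unadjusted p under 0.05 and a median of -0.0055. Acad12, an acyl-CoA dehydrogenase family member, had 1267 ± 40.3 normalised counts in knockout and 1419 ± 4.35 in control hearts (SD, n = 3 each), or log2 fold change -0.16. Acadl, the long-chain acyl-CoA dehydrogenase that works just before the trifunctional protein, had 3832 ± 180 in knockout and 3493 ± 146 in control hearts, or log2 fold change 0.13. The groups did not overlap for either gene, and both had a limma adjusted p of 1.00. Etfb, a subunit of the electron transfer flavoprotein, was at -0.12 with overlap.

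The list of other short-chain enzymes, mainly mitochondrial ones of amino acid and ketone metabolism, had 0 of 21 called. At an unadjusted p under 0.05 was 1 of them, and the median was 0.04. It also holds Ech1 and Acot2 of fatty acid metabolism, at 0.02 and 0.09 with overlap. Acadsb, the short/branched-chain acyl-CoA dehydrogenase of isoleucine breakdown, had 1710 ± 59.2 normalised counts in knockout and 1941 ± 54.3 in control hearts (SD, n = 3 each), without overlap, or log2 fold change -0.18 (limma, adjusted p = 0.928). Hibadh, the dehydrogenase of 3-hydroxyisobutyrate in the valine pathway that Echs1 also serves, was at -0.10, lower in knockout without overlap. Of the same pathway, Hibch was at 0.14, higher in knockout without overlap, and Acad8 was at -0.07 with overlap. Bdh1, the ketone body dehydrogenase, was at 0.23, or 0.07 without control 490.

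Peroxisomal counterparts had 0 of 7 tested genes called, with 1 at an unadjusted p under 0.05 and a median of 0.03, and Eci3, the 8th gene of that list, was below the filter. Scp2, whose products include a peroxisomal thiolase, had 1604 ± 107 normalised counts in knockout and 1823 ± 104 in control hearts (SD, n = 3 each), or log2 fold change -0.19 (limma, adjusted p = 1.00). The Scp2 groups did not overlap. Hsd17b4, the peroxisomal hydratase and dehydrogenase, was at 0.09 and Decr2, the peroxisomal counterpart of Decr1, at -0.07, both with overlap. Transcription factors and coactivators known to act on beta-oxidation genes had 0 of 9 called, 0 at an unadjusted p under 0.05 and a median of -0.0080, with Ppard at -0.19, Ppara at -0.14 and Esrrb at 0.11.

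**Figure D5:**
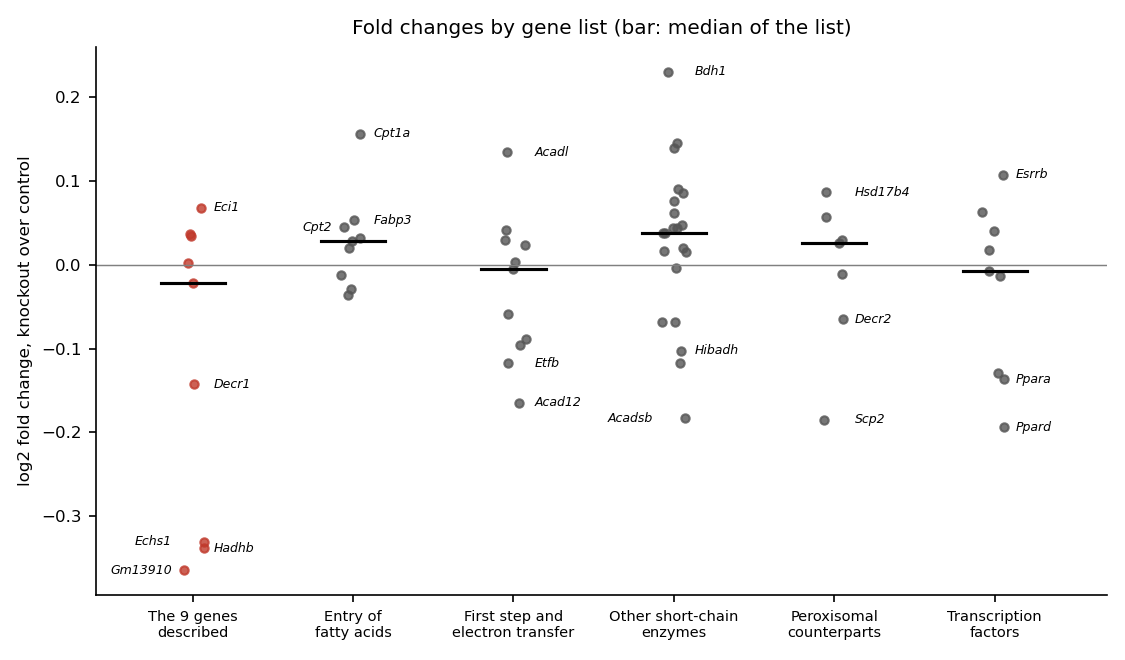
Log2 fold change, knockout over control (y axis), of the 9 genes described (red) and of the tested genes of 5 other lists (grey), with the median of each list as a bar and selected genes named. Hadhb, Gm13910 and Echs1 lie between -0.36 and -0.33, and the other lists lie between -0.19 and 0.23.

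Promoter windows of RefSeq matched 6 of the 9 genes, Hadha, Hadhb, Echs1, Hadh, Eci1 and Eci2, and the windows of Hadha and Hadhb share 228 bases. In the 250 bases upstream of the start, on either strand, all 6 held a GC box GGGCGG, as did 32.7% of 32817 promoters. The CCAAT box was in Hadh and Eci2 and in 33.8% of promoters. The ERR element, searched as TCAAGGTCA, was in 0 of the 6 and in 0.387% of promoters, the YY1 core, searched as AAGATGGC, in 0 and in 1.56%, and the TATA box, searched as TATAAA, in 0 and in 12.4%. A DR1 element of PPAR and RXR was in 0 of the 6 and in 0.034% of promoters, and an NRF1 site in 0 and in 0.777%. The GC box was thus present both in genes whose groups overlapped and in genes whose groups did not. G and C made up 58.8% to 62.8% of the 6 windows, where the median promoter had 52.4%.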

How the data were processed

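The values are signal per gene, deposited by the authors as normalised counts. The submitters' processing notes list the tools DESeq2 1.22.2, R 3.5.2, featureCounts, bedtools and Bowtie2 2.3.4.1 and the builds GRCm38 and mm10. The authors' deposited DESeq2 table gives log2 fold changes, a test score and p-values, used only as deposited. Ensembl identifiers joined a symbol for 54686 of 54715, without version numbers. Exon lengths were not at hand, so levels were not compared between genes. Divided by the worth of 1 read per library, 100% of 156689 nonzero values were whole reads within 0.01, and these reads were used for edgeR 4.0.16 and DESeq2 1.42.0.

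The test was limma 3.58.1 in R 4.3.3 with a trended prior on log2(value + 1), 2-sided, genotype as the only term, over 18250 features with a mean of at least 10, Benjamini-Hochberg adjusted at 0.05. It was checked on simulated counts. No pair of libraries of a group agreed within sampling noise (chi-square over degrees of freedom, 3.52 to 15.0). The members and lists were chosen with earlier results of these data known. Named genes are the 9 members, Rexo2, in each list the called genes or else up to 3 of smallest p, and the 5 nearest patterns to Hadhb and to Echs1. Hibch, Acad8, Ech1 and Acot2 are named in addition. Alternatives covered the pseudocount, filter, scaling, limma's prior, edgeR, DESeq2, the authors' table, summing Hadhb with Gm13910 and leaving out each library. Figures were drawn with matplotlib 3.10.9 in Python 3.11.15.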

Additional observations from a re-analysis of the deposited data

How the results depend on the processing

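Limma's count of 4 features called in knockout against control, 0 higher and 4 lower, depended on the fit. It was 12 of 32233 features (1 higher, 11 lower) with no filter on low values. Of the 18250 tested features it was 37 (1 and 36) under scaling to equal totals, 12 (2 and 10) with robust moderation and 0 (0 and 0) without a trended prior. DESeq2 on the recovered reads and the authors' deposited table each called 33 (4 higher, 29 lower) of the 7550 features with an adjusted p. EdgeR had 2 of its calls higher, and scaling to equal totals without mtDNA features had 1 higher. Leaving out 1 library gave 1 to 8 calls, 0 to 1 of them higher and 1 to 7 lower, with 1 call without knockout 499, control 498 or control 502 and 8 without control 490. Among the 9 genes, limma called Gm13910 with no filter, as 1 of the 12 calls over 32233 features. It called Hadhb, Gm13910 and Echs1 under equal totals, among the 37 calls over 18250 features. Nothing is read from these calls. The causes of these shifts were not tested.

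Hadhb ran from -0.42 to -0.27, Gm13910 from -0.43 to -0.30 and Echs1 from -0.40 to -0.30 in log2 fold change over all alternatives, while Hadha, Hadh, Acaa2, Eci1 and Eci2 turned sign in at least 1 of them. Calls among the other pathway genes stayed at 0 in every alternative, where limma's main fit called 4 of all 18250 tested features. No paired analysis was possible because the table's columns carry library numbers and not the replicate numbers of the labels. Levels per exon length were not run. With 3 libraries a group, the 95% intervals of the 9 genes span 0.26 to 0.48 on the log2 scale, which limits what the overlapping genes can show.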
